A study of Rattus norvegicus with 10 samples.

Results

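Enzymes of cholesterol synthesis and *Insig1*, a brake on that pathway, were followed in the brain of rats under mild to moderate calorie restriction (CR, less food without malnutrition). The set was chosen by gene name as *Hmgcs1*, *Mvk*, *Idi1*, *Fdft1*, *Sqle*, *Cyp51*, *Msmo1*, *Sc5d* and *Insig1*. Earlier results of these data were known when these genes and the gene lists set beside them were chosen. Every probe set, the group of short probes that reads a transcript on the array, was taken if the platform annotation gave it exactly 1 of these symbols. This yielded 15 probe sets of the 31099 on the array, for 8 of the 9 genes. *Hmgcs1* had no such probe set and was not analysed here. The CR rats received 5, 10, 20 or 30% less food than the recorded free intake for 1 week, and the control rats received that intake in full. All were male Wistar rats, an outbred strain, entered the feeding period at 6 weeks of age, ate the same purified powdered diet in single housing and were fasted for 16 h before the hypothalamus area was taken. Each group had 5 rats, and by the study's methods a pool of complementary RNA, made from the extracted RNA, was put on a single array. Differences between animals are thus hidden and each group has 1 value. The 5 arrays of the 1 month groups were left out, because their rows did not follow the probe set identifiers. Across probe sets, log2 signals of the 2 durations correlated at only 0.036 to 0.052 over 25 array pairs, while the 1 month arrays correlated among themselves at 0.918 to 0.935.

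Cells build cholesterol from acetyl units through mevalonate, isoprene units, squalene and a chain of sterols. When sterols are scarce, the protein SCAP escorts the SREBP transcription factors to the Golgi, where they are cut and released to switch on the genes of the pathway. INSIG1 holds SCAP back when sterols are plentiful, and *Insig1* is itself an SREBP target gene. The brain makes its own cholesterol, since the blood-brain barrier keeps out that of the circulation, and much of it is laid down in myelin by oligodendrocytes and supplied to neurons by astrocytes.

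Every difference from control given here rests on a single array, which was unlike the others in several respects. The log2 signals of the 1 week control array correlated with those of the CR arrays at 0.852 to 0.874, against 0.912 to 0.922 among the CR arrays. Signals under 10 made up 11.7 to 14.4% of the values on the CR arrays and 24.0% on the control array. The excess of 3′ over 5′ signal of the GAPDH control transcript was 0.40 to 0.79 on the CR arrays and 0.19 on the control array (log2 scale). In 12 of 12 probe sets for poly-A spike-in RNAs, added before labelling, every CR array was below control (median log2 difference -1.29). The hybridization spike-ins, added after labelling, did not differ in this way, with a median difference of 0.03 and every CR array below control in 2 of 9 probe sets. The part of these differences in the results was not tested. Of 7 tested hypothalamic markers, *Npy* rose (log2 difference 1.25, adjusted p = 0.000257), *Trh* fell (-1.09, adjusted p = 0.00803) and the other 5 did not pass by limma. In either direction, 25.5% of all tested probe sets were called, a share near that of these markers. *Pmch*, melanin-concentrating hormone, was bright at 8130 to 8942 on the CR arrays and 7157 on the control array. *Pomc*, of arcuate neurons, was near background at 4.9 to 14.8 on the CR arrays and 2.6 on the control array.

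SREBPs act together with factors that bind CCAAT boxes (NF-Y) and GC boxes (Sp1), so the stretch before the start of each gene was searched for these motifs and for a sterol regulatory element. RefSeq promoter entries (GRCr8 build) were found for 6 of the 8 measured genes, all but *Fdft1* and *Sqle*. In the 250 bases before the start, the sterol regulatory element TCACNCCAC, on either strand, was in none of the 6, and in 0.974% of the 33469 promoters in the table. This says only that these letters are not in this window. The CCAAT box (CCAAT on either strand) was in 5 of 6, against 34.0% of all promoters, and the GC box (GGGCGG on either strand) in 5 of 6, against 30.5%. The 4 stretches printed here span the range of CCAAT box counts, namely 5 in *Mvk*, 3 in *Msmo1*, 1 in *Insig1* and 0 in *Cyp51*. Of all promoters, 2.52% held 3 or more. Each is written 5′ to 3′ along the gene and ends at the base before the annotated start, with CCAAT and GC boxes of either orientation in capitals.
*Mvk* (chr12:47819504-47819753, minus strand): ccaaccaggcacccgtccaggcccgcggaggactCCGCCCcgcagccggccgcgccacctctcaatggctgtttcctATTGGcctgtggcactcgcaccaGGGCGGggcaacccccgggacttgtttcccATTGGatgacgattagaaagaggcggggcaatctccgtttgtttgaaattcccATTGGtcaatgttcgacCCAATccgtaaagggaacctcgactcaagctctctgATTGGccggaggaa
*Msmo1* (chr16:29746863-29747112, plus strand): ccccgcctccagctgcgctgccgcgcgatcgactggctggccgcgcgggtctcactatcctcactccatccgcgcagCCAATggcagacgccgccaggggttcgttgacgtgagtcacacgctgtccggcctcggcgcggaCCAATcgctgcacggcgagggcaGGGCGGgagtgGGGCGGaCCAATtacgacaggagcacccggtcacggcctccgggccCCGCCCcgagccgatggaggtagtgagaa
*Insig1* (chr4:8057770-8058019, minus strand): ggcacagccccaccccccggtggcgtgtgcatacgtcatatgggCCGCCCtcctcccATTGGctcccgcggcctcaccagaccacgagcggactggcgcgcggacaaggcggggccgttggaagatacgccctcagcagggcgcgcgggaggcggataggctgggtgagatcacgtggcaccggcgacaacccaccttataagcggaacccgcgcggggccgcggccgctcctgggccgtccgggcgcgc
*Cyp51* (chr4:30991443-30991692, plus strand): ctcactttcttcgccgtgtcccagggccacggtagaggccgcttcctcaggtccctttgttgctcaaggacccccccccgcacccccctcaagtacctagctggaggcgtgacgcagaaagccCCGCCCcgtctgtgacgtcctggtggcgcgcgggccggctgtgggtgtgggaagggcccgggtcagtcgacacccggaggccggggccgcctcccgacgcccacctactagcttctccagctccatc
A match is a stretch of letters and not a measured binding site. *Idi1* held 2 CCAAT boxes and *Sc5d* held 1.

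**Figure D1:**
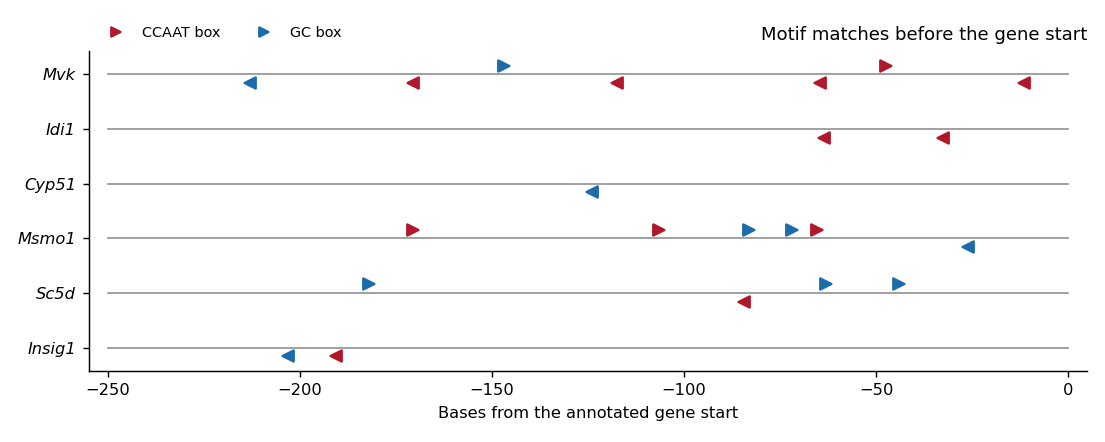
Positions of CCAAT boxes (red) and GC boxes (blue) in the 250 bases before the annotated start of the 6 measured genes with a promoter entry. The x axis is the distance from the start in bases, and right-pointing and left-pointing markers are the forward and reverse orientations. *Mvk* has 5 CCAAT boxes and *Cyp51* has none.

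Across the set, most enzymes gave lower signals on the CR arrays than on the control array, and the largest falls were those of *Mvk*, *Insig1* and 1 of 3 probe sets of *Sc5d*. A second pattern ran through the set, in that probe sets of the same gene did not always move together. Of the 15 probe sets, 13 had a mean log2 signal above the median of all probe sets (a linear signal of 53.3) and entered the test, and these covered all 8 genes. The other 2, both of *Mvk*, were too dim on average. The tested *Mvk* probe set, 1368232_at, passed only through the control array, since its geometric mean on the CR arrays was 51.8, below the filter, and 186.7 on the control array, so a fall there is partly set by the filter. CR was compared with control by limma over 15521 probe sets, with the 4 CR arrays as 1 group, so the lone control array is assumed to vary like the CR arrays. Since each CR array is its own level, the p-values reflect variation among single pools and levels. Of the 13 probe sets, 9 fell, against a background of 11.0% of all tested probe sets, and 1 rose, against 14.5%. Without *Mvk* it was 8 of 12 lower, in 7 genes, and 1 higher. Counted by the brightest probe set of each gene, 6 of 8 genes fell, *Mvk* included, *Sc5d* rose and *Idi1* did not pass. A fall in at least 1 probe set was found for 8 genes, for 7 without the 5% array, and for 6 with quantile scaling or without an intensity trend in the variance. Counting a gene by any of its probe sets gives more chances to genes with several, and the share of all genes counted so was not computed. This count also includes *Mvk*. The median difference was -0.74 on the log2 scale for the 13 probe sets and 0.03 for all probe sets tested. Because the genes were chosen with earlier results of these data known, these comparisons with all probe sets are not a blind test.

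**Figure D2:**
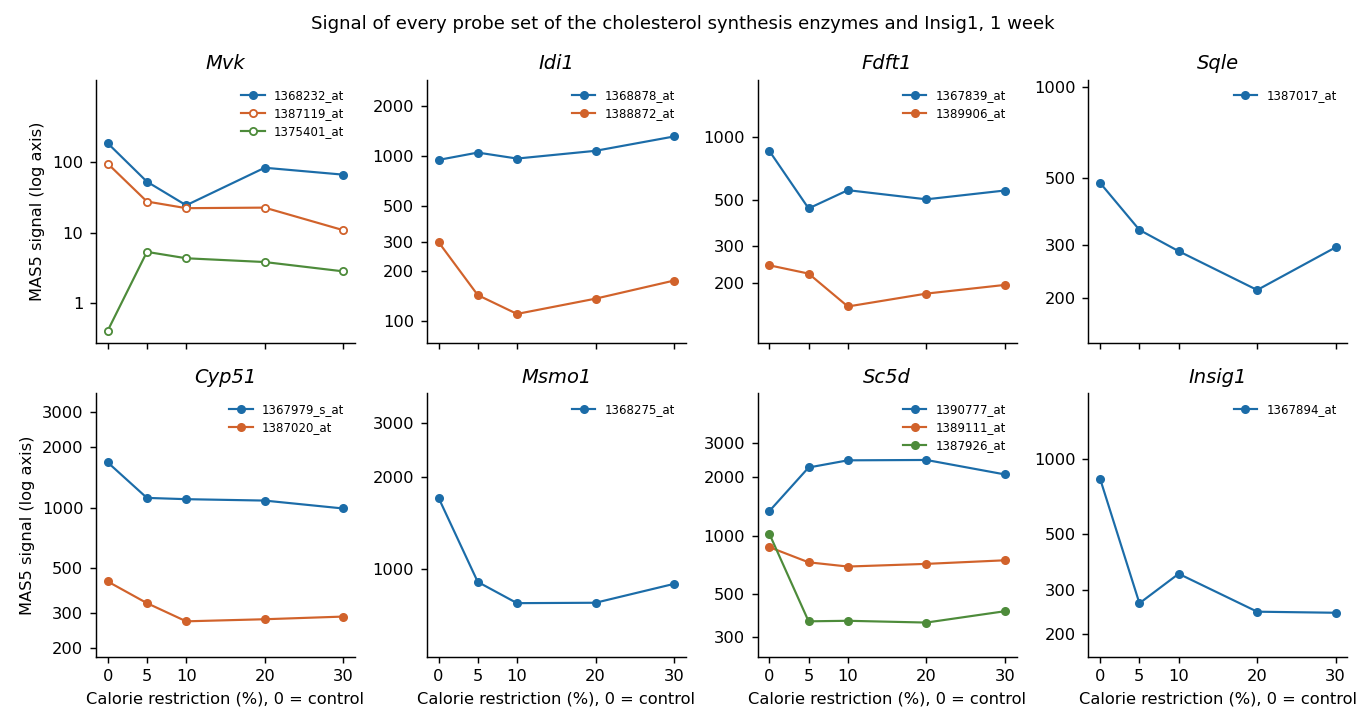
MAS5 signal (log axis) of every probe set of the 8 measured genes against CR level in percent at 1 week, with the control array at 0. Each line is a probe set with 1 array per point, and open markers are probe sets too dim for the test. *Insig1* lies between 243.1 and 348.1 on the CR arrays and at 833.0 on the control array, whereas the brightest probe set of *Sc5d* is above control on all 4 CR arrays.

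*Mvk* encodes mevalonate kinase, which adds a phosphate to mevalonate early in the pathway. The probe set built on its RefSeq mRNA (1368232_at) gave 52.9, 24.4, 83.5 and 66.6 on the 5, 10, 20 and 30% CR arrays, against 186.7 on the control array. All CR signals lay below control, with the 10% array lowest and the CR arrays differing more among themselves than for any other tested probe set of the set. The log2 difference was -1.85 ± 0.77 (SD, n = 4), equal to a 3.61-fold lower signal (adjusted p = 0.0443). This call was lost without the 5% array (adjusted p = 0.0566), with quantile scaling (0.0713), without an intensity trend in the variance (0.0946) and without the signal filter (0.0517). A dim probe set of the same gene, 1387119_at, gave 27.6, 22.2, 22.6 and 10.8 on the CR arrays and 95.6 on the control array, also all below it. The last *Mvk* probe set, 1375401_at, was near background everywhere, at 2.8 to 5.3 on the CR arrays and 0.4 on the control array, too low to give a direction.

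*Idi1* encodes isopentenyl-diphosphate isomerase, which interconverts the isoprene building blocks. Its 2 probe sets disagreed. The dimmer one, 1388872_at, gave 144.1, 110.9, 137.1 and 176.3 on the 5, 10, 20 and 30% CR arrays and 301.1 on the control array, a log2 difference of -1.10 ± 0.27 (SD, n = 4, adjusted p = 0.0142). The brighter one, 1368878_at, gave 1043.9, 960.7, 1069.8 and 1305.7 on the CR arrays and 942.7 on the control array. All 4 CR signals were thus slightly above control there, with a log2 difference of 0.21 that did not pass (adjusted p = 0.379, 95% interval -0.15 to 0.57). The direction for the isomerase transcript thus depends on which probe set is read.

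*Fdft1* and *Sqle* make and use squalene, the open chain from which the sterol rings are built. *Fdft1* encodes squalene synthase, which joins farnesyl units. Its probe set 1367839_at gave 455.7, 557.8, 504.1 and 555.8 on the 5, 10, 20 and 30% CR arrays and 861.2 on the control array. These lay well below control, at -0.74 ± 0.14 (SD, n = 4, log2 difference, adjusted p = 0.00745). The other *Fdft1* probe set, 1389906_at, gave 221.5, 153.9, 177.5 and 195.4 on the CR arrays and 242.8 on the control array. It was lower on all CR arrays too, but the log2 difference of -0.39 did not pass (adjusted p = 0.25, 95% interval -0.91 to 0.13). *Sqle*, squalene epoxidase, a rate-limiting step of the later pathway, gave 337.0, 286.5, 213.0 and 295.1 on the CR arrays and 482.2 on the control array. Its lowest signal was on the 20% array and its log2 difference was -0.79 ± 0.28 (SD, n = 4, adjusted p = 0.0332). The *Sqle* call was lost with quantile scaling (adjusted p = 0.0682) and without the intensity trend (0.0931).

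*Cyp51* and *Msmo1* remove methyl groups from the sterol rings. *Cyp51*, lanosterol demethylase, gave 1118.9, 1102.6, 1085.1 and 991.3 for probe set 1367979_s_at on the 5, 10, 20 and 30% CR arrays and 1679.6 on the control array. The CR arrays lay close together and the log2 difference was -0.65 ± 0.08 (SD, n = 4, adjusted p = 0.00404). The suffix of this probe set marks probes that can bind more than 1 transcript. The second *Cyp51* probe set, 1387020_at, gave 335.9, 272.8, 279.4 and 288.0 on the CR arrays and 430.3 on the control array. Its log2 difference of -0.55 ± 0.14 was close to that of the first (SD, n = 4, adjusted p = 0.0436), making *Cyp51* the only gene of the set with more than 1 tested probe set in which all of them fell. The call of 1387020_at was lost without the 10, 20 or 30% array (adjusted p = 0.0758, 0.0686 and 0.0586), with quantile scaling (0.102) and without the intensity trend (0.0879). *Msmo1*, methylsterol monooxygenase, gave 903.7, 769.7, 772.0 and 890.5 on the CR arrays and 1708.0 on the control array. That is a 2.05-fold lower signal, -1.04 ± 0.13 on the log2 scale (SD, n = 4, adjusted p = 0.000899), and it passed under all 12 settings tried.

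*Sc5d* encodes lathosterol desaturase, an enzyme near the end of the pathway, and its 3 probe sets gave 3 different answers. Probe set 1387926_at gave 362.8, 365.1, 357.5 and 408.9 on the 5, 10, 20 and 30% CR arrays and 1023.3 on the control array. It was 2.74-fold lower, -1.46 ± 0.09 on the log2 scale (SD, n = 4, adjusted p = 0.000301). Probe set 1389111_at gave 729.9, 694.2, 716.5 and 747.5 on the CR arrays and 873.6 on the control array. All were a little below control, at a log2 difference of -0.28 ± 0.05 that did not pass (SD, n = 4, adjusted p = 0.128). Probe set 1390777_at, the brightest, gave 2244.1, 2443.1, 2453.5 and 2067.4 on the CR arrays and 1338.4 on the control array. It was 1.72-fold higher, 0.78 ± 0.12 on the log2 scale (SD, n = 4, adjusted p = 0.00196), and was the single probe set of the set that rose. The gap between the highest and the lowest *Sc5d* probe set was 2.23 on the log2 scale. Among 1873 genes with several tested probe sets the median gap was 0.74, and 5.61% had a wider gap than *Sc5d* and 23.7% a wider gap than *Idi1* (1.31). A called rise and a called fall within the same gene occurred in 75 of them, or 4.0%. Which part of the transcript each probe set reads was not tested, and the 3′ to 5′ signal ratio differed between the CR and control arrays as given above.

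*Insig1*, the sterol-responsive retention partner of SCAP, had the largest fall of the tested probe sets after that of *Mvk*. It gave 265.3, 348.1, 245.5 and 243.1 on the 5, 10, 20 and 30% CR arrays and 833.0 on the control array. The highest CR signal, on the 10% array, was still far below control. The log2 difference was -1.61 ± 0.24 (SD, n = 4), a 3.06-fold lower signal (adjusted p = 0.000888), and it passed under all 12 settings. In the order of all 15521 tested probe sets by log2 difference, *Mvk* 1368232_at was the 121st lowest, *Insig1* the 206th, *Sc5d* 1387926_at the 287th and *Idi1* 1388872_at the 599th. The *Mvk* probe set passed the filter only through the control array, so its place in this order is partly set by the filter.

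**Figure D3:**
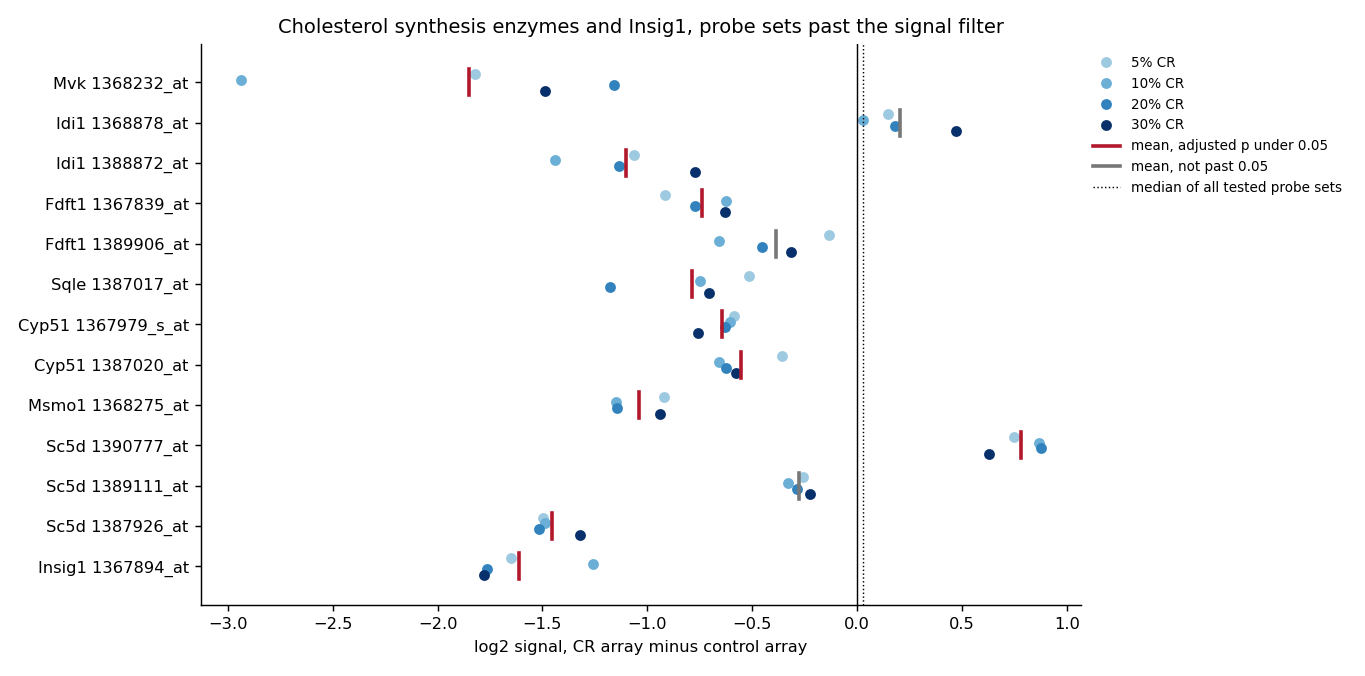
Log2 signal on each CR array minus the control array (x axis) for the 13 tested probe sets (rows), with points shaded by CR level and a bar at their mean, red for an adjusted p under 0.05 (limma). The black line is no difference and the dotted line the median of all tested probe sets, 0.03. Of the 13, 9 bars are red and left of the line and 1, *Sc5d* 1390777_at, is red and right of it.

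The fall was present at each level of CR. With 1 array per level there is no replicate check, and the 4 comparisons share the control array. A signal at least 1.5-fold below control was found for 7 of the 13 probe sets at 5% CR, against 14.7% of all tested probe sets. At 10% CR it was 10 of 13 (background 16.6%), at 20% CR 9 (17.1%) and at 30% CR 8 (13.7%). On all 4 CR arrays together it was 7 of 13, against 7.44%, namely *Mvk* 1368232_at, *Idi1* 1388872_at, *Fdft1* 1367839_at, *Cyp51* 1367979_s_at, *Msmo1*, *Sc5d* 1387926_at and *Insig1*. Each of these counts includes *Mvk* 1368232_at, which passed the filter only through the control array, so its place there is partly set by the filter. A signal at least 1.5-fold above control on all 4 was found for 1 of 13, *Sc5d* 1390777_at, against 12.4%. Falls were more common among brighter probe sets in general. With the filter raised to the 75th percentile, which left out *Mvk* 1368232_at and *Idi1* 1388872_at, 7 of the 11 probe sets kept fell, against 17.6% of all kept. Scaling mattered as well, because the median signal was 59.1 to 63.5 on the CR arrays and 45.5 on the control array. Setting the medians equal moved the median difference of all tested probe sets to -0.41 and that of the set to -1.18, with 11 of 13 called lower, against 32.6% of all, and 1 higher. Over all probe sets the split was 2246 higher and 1712 lower as deposited and 1017 higher and 5057 lower after that scaling. *Sc5d* 1390777_at was still higher then, by 0.34, and the bright *Idi1* probe set turned to -0.23 without passing.

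Among the CR arrays themselves, no graded course of these signals with the severity of restriction was detected. The slope over 5, 10, 20 and 30% CR, which does not use the control array, passed for none of the 13 probe sets by limma, and for 0 of 15521 in all (0%). At an unadjusted p under 0.05 there was 1 of 13, against 743 of all (4.79%). That 1 was the bright *Idi1* probe set, at 0.14 per 10 percentage points of CR on the log2 scale (95% interval 0.0012 to 0.287, adjusted p = 0.999). *Insig1* had a slope of -0.12 (95% interval -0.35 to 0.10) and *Msmo1* of 0.01 (-0.15 to 0.17). That of *Mvk* was 0.38 with the widest interval, -0.29 to 1.05. *Cyp51* 1367979_s_at fell at each step, from 1118.9 at 5% to 991.3 at 30% CR, with a slope of -0.07 (-0.19 to 0.06). With only 4 arrays these intervals allow slopes of either sign for all but *Idi1* 1368878_at. Moderate (20 and 30%) set against mild (5 and 10%) CR gave no call either, with 783 of 15521 at an unadjusted p under 0.05 and none of the 13. The largest such difference of the set was that of *Mvk*, 1.05 on the log2 scale (adjusted p = 0.937).

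**Figure D4:**
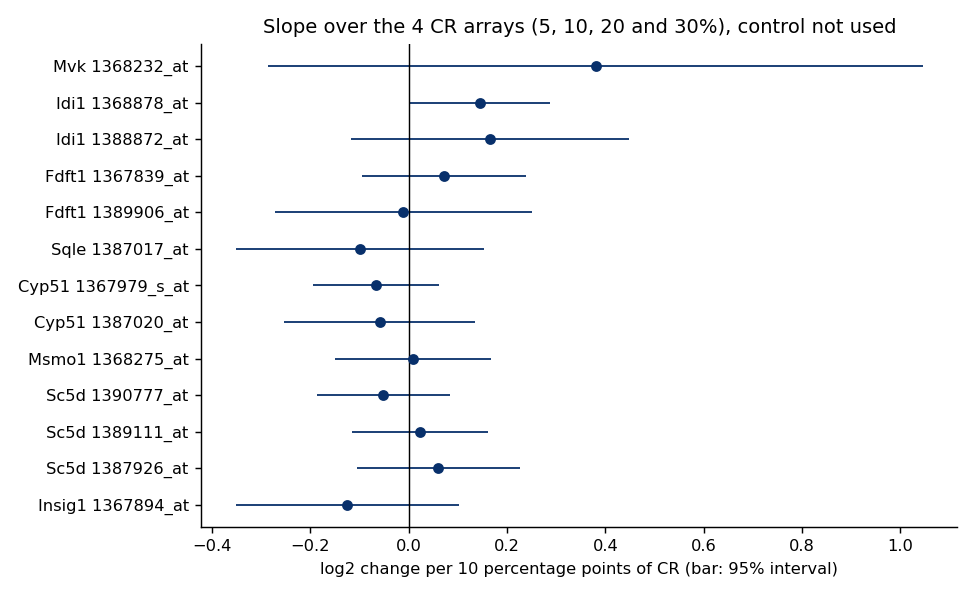
Log2 change per 10 percentage points of CR (x axis) over the 4 CR arrays for the 13 tested probe sets (rows), with the 95% interval from limma as a bar. The values run from -0.12 for *Insig1* to 0.38 for *Mvk*, and all intervals but that of *Idi1* 1368878_at include 0.

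The other enzymes of the pathway leaned the same way without passing. The lean was not theirs alone, since 5 of 6 tested genes of SREBP control and 8 of 9 of uptake, transport and removal lay below control too. *Mvd* was well below control only on the 20% array (16.4, against 94.7 to 103.2 on the other CR arrays and 101.6 on the control array). A dimmer *Nsdhl* probe set lay above control (0.10), unlike the brightest (-0.25). Of 12 such enzymes on the array, 11 were tested by their brightest probe set, and 10 of these lay below control. Their median log2 difference was -0.46, against 0.03 for all tested probe sets, yet none passed by limma. At an unadjusted p under 0.05 there were 3 lower and 0 higher of the 11, no excess over the 5965 of all 15521 in either direction. *Tm7sf2*, a sterol reductase, had -0.97 ± 0.35 (SE, adjusted p = 0.0691) and *Dhcr7*, the last enzyme toward cholesterol, -0.70 ± 0.24 (SE, adjusted p = 0.0577). *Fdps*, farnesyl diphosphate synthase, had -0.43 ± 0.15 (SE, adjusted p = 0.0692). *Ggps1*, which leads away to geranylgeranyl units, was above control by its brightest probe set at 0.48 ± 0.49 (SE, adjusted p = 0.51), though not on the 20% array. Its other tested probe set lay below control at -0.52 ± 0.47 (SE, adjusted p = 0.454), so no direction can be given for *Ggps1*.

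Of the 6 genes that control SREBP, *Scap* fell and none rose by the brightest probe set, a share near the 11.0% of all tested probe sets. *Scap* gave 247.3, 228.0, 203.1 and 281.0 on the 5, 10, 20 and 30% CR arrays and 495.5 on the control array, a log2 difference of -1.06 ± 0.20 (SE, adjusted p = 0.00511). The transcripts of the factors did not pass, with *Srebf2*, which drives the cholesterol genes, at -0.04 ± 0.16 and *Srebf1* at -0.43 ± 0.26 (SE). *Insig2*, the relative of *Insig1*, was at -0.47 ± 0.21 (SE, adjusted p = 0.133), while its dimmer probe set passed at -0.93 ± 0.30 (SE, adjusted p = 0.0469). Among 9 tested genes of cholesterol uptake, transport and removal, 1 fell and none rose, no more than that background. This was *Nr1h2*, the oxysterol receptor LXR beta, with 48.7, 77.9, 54.8 and 74.8 on the CR arrays and 178.2 on the control array (log2 difference -1.50 ± 0.37, SE, adjusted p = 0.0165). *Apoe*, the main lipid carrier of the brain, was at -0.16 ± 0.09 and *Cyp46a1*, which turns cholesterol into its exported form, at -0.60 ± 0.21 (SE, adjusted p = 0.254 and 0.0631). By their brightest probe sets, none of 7 fatty acid synthesis genes driven by SREBP-1 passed by limma, nor did any at an unadjusted p under 0.05. Their median log2 difference was -0.14, against -0.76 for the brightest probe sets of the 8 measured genes of the set. Of 2 dimmer probe sets tested for these fatty acid genes none passed, with that of *Fasn* at -0.47 ± 0.19 (SE, adjusted p = 0.106).

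**Figure D5:**
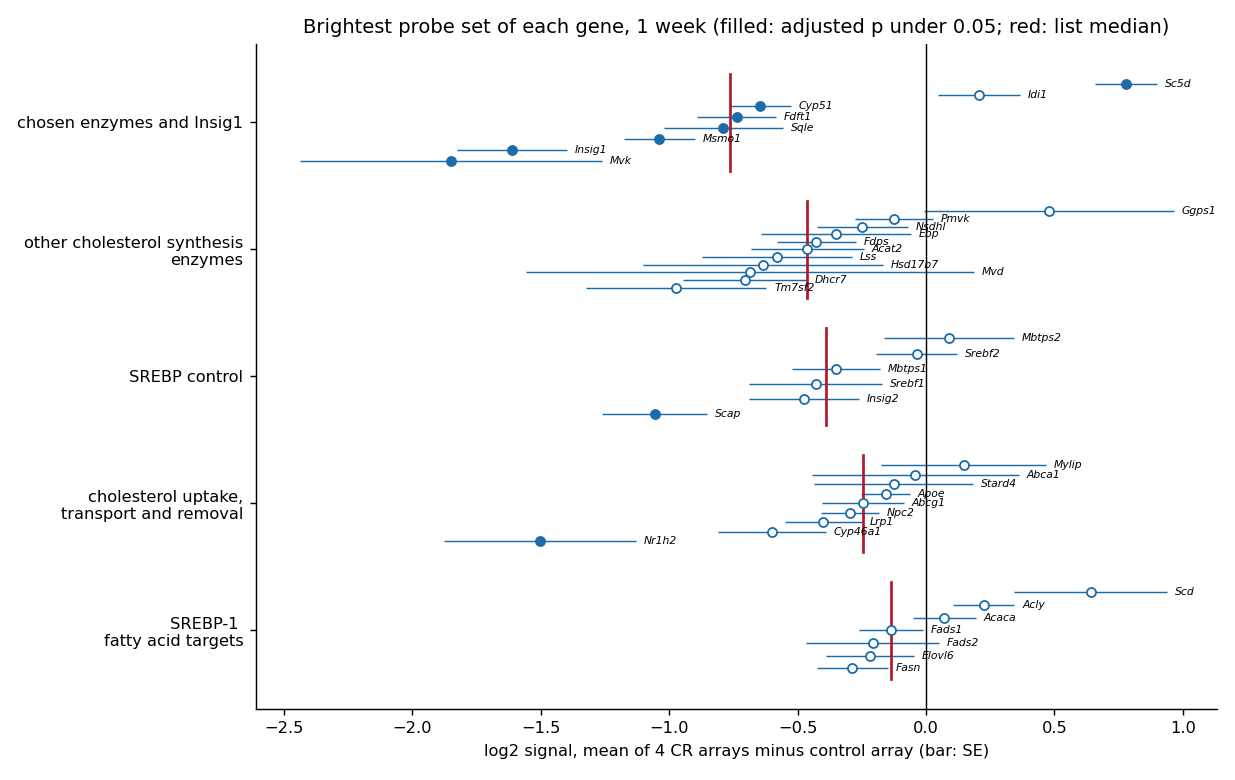
CR minus control in mean log2 signal (x axis, bar SE from limma, 4 arrays and 1 array) for the brightest probe set of each gene in 5 lists (rows), filled where the adjusted p was under 0.05, with the list median in red. The medians are -0.76 for the chosen enzymes and *Insig1*, -0.46 for the other synthesis enzymes, -0.39 for SREBP control, -0.24 for uptake, transport and removal and -0.14 for the fatty acid genes.

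Markers of cholesterol-rich and cholesterol-making cells were measured beside these genes. In bulk tissue, fewer cells of a type and less RNA per cell cannot be told apart. Of 11 oligodendrocyte and myelin markers, 4 fell and none rose by the brightest probe set, against 11.0% lower and 14.5% higher of all tested probe sets and 17.6% lower of the brighter ones. These were *Ugt8* (-1.36), *Mog* (-1.35), *Mal* (-1.26) and *Opalin* (-0.64). The abundant myelin transcripts *Mbp* (0.07), *Mobp* (-0.00045) and *Cnp* (0.24) did not pass by their brightest probe sets, but of 8 dimmer probe sets tested 4 fell and none rose, namely of *Cldn11* (-2.74), *Mbp* (-2.32), *Mobp* (-1.23) and *Ermn* (-1.07). The summed signal of the list was 24500 to 26642 on the CR arrays and 26861 on the control array. Of 7 tested astrocyte markers *Aldh1l1* fell (-0.89) and *Gja1* rose (0.40), with a summed signal over 8 markers of 27416 to 28541 on the CR arrays and 28552 on the control array. Of 4 dimmer astrocyte probe sets tested 3 fell, 1 of *Slc1a3* (-2.62) and both of *Aqp4* (-1.43 and -1.31), and another of *Slc1a3* rose (1.34). Among 7 tested neuronal markers *Tubb3* (-0.64) and *Stmn2* (-0.41) fell and *Eno2* (0.38) rose, and the sums were 14950 to 16312 on the CR arrays and 16726 on the control array. Of 4 dimmer neuronal probe sets tested, those of *Stmn2* (-1.05) and *Nefl* (-0.53) fell. By its brightest probe set, no marker of these 3 lists had a signal under 10 on any array. The pituitary marker *Cga* rose (1.18). *Lhb* and *Tshb* rose too (1.61 and 2.26), but passed the filter only through the CR arrays, with control signals of 33.6 and 43.3. The list had a summed signal over 6 markers of 2047 to 2849 on the CR arrays and 988.4 on the control array. Of the defining hormones, *Prl* was at 5.1 to 29.8 on the CR arrays and 0.6 on the control array. *Gh1* was at 8.0 to 50.6 on the CR arrays and 10.7 on the control array. Of 5 endothelial markers *Slc2a1* rose (0.58) and *Cldn5* fell (-1.36), and of 4 microglial markers *Tyrobp* rose (0.92). Of 3 choroid plexus markers *Enpp2* fell (-0.88) and *Ttr* rose (1.93), the last again past the filter only through the CR arrays, with a control signal of 35.5. Of all tested probe sets 25.5% were called in either direction. The part of these cell types in the falls of the cholesterol genes was not tested.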

How the data were processed

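Total RNA was extracted from rat brain (hypothalamus area in the study's methods) of 5 rats per group. A pool of complementary RNA per group was measured on Affymetrix Rat Genome arrays. Per the labels and the study's methods, the authors deposited linear signal intensity from the MAS5 algorithm, which weighs perfect-match against mismatch probes and scales each array. No detection calls were used, so low signals cannot be told from absent transcripts. The number of arrays limits the precision.

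The 1 week columns were taken as log2 without a pseudocount, with 4 values of 0 set to 0.1. The annotation gave exactly 1 symbol to 20832 of 31099 probe sets, more than 1 to 436 and none to 9831, and 57 control probe sets were left out. Probe sets above the 50th percentile of mean log2 signal were tested with limma 3.58.1 in R 4.3.3 (lmFit, eBayes with an intensity trend, Benjamini-Hochberg adjustment, threshold 0.05), and the fits were tested on simulated data. Figures and counts used Python 3.11.15. Genes with several probe sets were shown by all of them, and lists by the brightest. Named genes were all chosen genes and list genes that passed, with some list genes that did not pass added after their values were seen. The chosen genes, lists and tests were set with earlier results of these data known.

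The other settings tried were scaling by median or by quantiles, the filter removed or raised to the 75th percentile, 13.7 (20th percentile of signals) added to each signal, robust eBayes or eBayes with no trend, each CR array omitted in turn, 2-fold in place of 1.5-fold, the control as 0% in the trend, and moderate against mild CR.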

Additional observations from a re-analysis of the deposited data

Results flagged for a closer look

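In *Sc5d* probe set 1387926_at, 1 CR array lay apart from the other 3. The 30% array gave 408.9 and the 5, 10 and 20% arrays 362.8, 365.1 and 357.5, against 1023.3 on the control array, and the gap to the nearest value was 0.843 of the whole range of log2 signals on the CR arrays. Among the 15 probe sets this was the only one past the 95% limit of Dixon's ratio, and chance passes that limit in about 1 of 20 groups. The 4 CR arrays differ in CR level and are not replicates of a dose.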

How the results depend on the processing

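For CR against control, the direction of all 10 called probe sets was kept under every alternative in which they were tested. The 3 calls that were lost under some settings, of *Mvk* 1368232_at, *Sqle* and *Cyp51* 1387020_at, are given with their values above, and the cause was not tested. With median scaling 6074 probe sets were called in all and without a filter 6685, against 3958 as reported. The fit without a filter tested 31042 probe sets in place of 15521. Without a filter 2 probe sets of the set were higher, against 4943 of the 31042, since the near-background *Mvk* 1375401_at was added. Leaving out 1 CR array at a time gave 8 lower probe sets of the set each time, against 9.6 to 11.8% of all tested. Calls in either direction were then 3455 to 4084 in all. Past 2-fold in place of 1.5-fold on all 4 CR arrays there were 3 lower and 0 higher probe sets (2.59% and 6.06% of all tested), and with median scaling 11 lower and 0 higher past 1.5-fold (23.6% and 5.84% of all). Both lower counts include *Mvk* 1368232_at, which passed the filter only through the control array. Called lower probe sets were 6 with quantile scaling (8.45% of all) and 6 without an intensity trend (6.48%). The trend over CR level gave 0 calls under every alternative, also with the control array as 0%. Signal near background limits what the dim *Mvk* probe sets can show.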

Other observations

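The genes whose profile over the 5 arrays was most like the mean profile of the 8 measured genes were *Golga7*, *Arl1*, *Plekhb1*, *Ube2o* and *Ccdc91*, out of 9471 other genes tested by their brightest probe set. The mean profile used the brightest probe set of each gene. It thus mixes directions, with *Sc5d* (0.78) and *Idi1* (0.21) above control and the others below, among them *Mvk* 1368232_at (-1.85), which passed the filter only through the control array. Likeness was the root mean square distance of log2 signals centred on their mean, which was 0.013 for *Golga7* and 0.028 for *Ccdc91*. *Golga7* gave 974.3, 888.4, 943.8 and 997.5 on the 5, 10, 20 and 30% CR arrays and 1542.8 on the control array. *Arl1* gave 436.5, 414.5, 433.8 and 454.9 on the CR arrays and 710.0 on the control array. With 5 arrays such a profile is little more than a step between CR and control, and 558 of these genes correlated with it above 0.95.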
